A study of Musa balbisiana with 10 samples.

Results

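The data described here compare the pulp transcriptome of ethylene-treated and control Klutuk Wulung banana on day 7 of fruit ripening. Klutuk Wulung is a cultivar of Musa balbisiana of the BB group, a banana that carries the B genome alone. The comparison takes 6 of the 10 libraries of the series, chosen by their labels: 3 libraries of ethylene-treated fruit (E7, replicates A, B and C) and 3 of control fruit (K7, replicates A, B and C). The treated fruit was first held in a glass container with ethylene gas at 100 µl/L and then kept outside it at room temperature. The exposure thus did not last until day 7. The control fruit received no ethylene. All fruit was of the same cultivar, and total RNA was taken from the pulp. The other 4 libraries, 2 of each treatment on day 1, entered the day 7 test through the merging of loci, the filter on low FPKM and the estimate of the spread between replicates, and are set beside it where day 1 is named. The study calls its replicates biological, and the sources used here do not say whether they came from separate fruit, bunches or plants, so the p-values measure the spread between these samples.

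Banana is a climacteric fruit, in which ripening is accompanied by a burst of respiration and of ethylene. The hormone is made from S-adenosylmethionine by ACC synthase and ACC oxidase, it is perceived by receptors in the endoplasmic reticulum, and its signal reaches the nucleus through EIN2 and transcription factors of the EIN3 family. In ripening pulp, starch is turned into sugars and the cell wall is loosened by enzymes such as pectate lyases, polygalacturonases and expansins. The tables used here name genes by locus identifiers without a function, so no measured locus was assigned to any of these steps.

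The unit of measurement was FPKM, a count of sequenced fragments divided by transcript length and by the size of the library. Each library had its own table of loci, and names given to assembled loci did not carry over between tables, so loci were matched by position. Loci of at least 300 bp were merged wherever they overlapped in any of the 10 tables, and the FPKM within each of the 30802 resulting regions was summed. The test covered the 17430 regions whose FPKM averaged 1 or more over the 10 libraries. Of these, 5155 held exactly 1 annotated identifier, 660 held several and 11615 held none. A region with 1 identifier is named by it, although its summed FPKM can include other loci. Identifiers are given without their version suffix, and positions are those of the DH PKW v1.1 genome. The tables give no number of fragments, so the depth behind each value was not read from them. The precision within a library was read from the upper bound of each locus, whose ratio to the FPKM had a median between 1.13 and 1.19 in the E7 libraries and between 1.15 and 1.2 in the K7 libraries. Both A libraries were single-end and the other 4 paired-end, so the layout was balanced between the treatments.

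Some regions had no locus at all in a library and entered the test as 0 there, and this cannot be read as absence of the transcript. On chromosome 9, between 3709590 and 3996810, all 22 consecutive tested regions were without a locus in E7 B and in E7 C, against 10 in K7 B and 9 in K7 C. In the single-end libraries, 2 of the 22 were missing from E7 A and 2 from K7 A. Of the tested regions, 403 lacked a locus in at least 1 day 7 library. Restricting the test to the 16821 regions with a locus in all 10 libraries gave 2264 called regions, 1471 higher and 793 lower, and treating the unlisted values as missing gave 2269, 1479 higher and 790 lower. These settings were chosen after the data had been seen. Results that rest on unlisted values are named as such.

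More regions were called higher than lower in ethylene-treated fruit on day 7, and the called changes upward were larger than those downward. limma on log2(FPKM + 1) called 2286 of the 17430 regions (13.1%) at an adjusted p of at most 0.05, of which 1503 (8.62%) were higher in ethylene-treated fruit and 783 (4.49%) were lower. The called higher regions had a median log2 fold change of 1.31, with quartiles of 0.92 and 1.98, and the called lower regions one of -0.82, with quartiles of -1.02 and -0.68. Over all tested regions the median was -0.11, and after median-of-ratios scaling it was -0.05. All 3 ethylene-treated libraries lay above all 3 control libraries in 1503 of the called higher regions, and below them in 779 of the called lower regions. Over all tested regions, called or not, the order was the other way round: the groups did not overlap in 2699 regions (15.5%) with ethylene-treated fruit higher and in 3297 (18.9%) with ethylene-treated fruit lower. All fold changes given here refer to log2(FPKM + 1), where the change of a region with low FPKM appears smaller than it is.

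**Figure D1:**
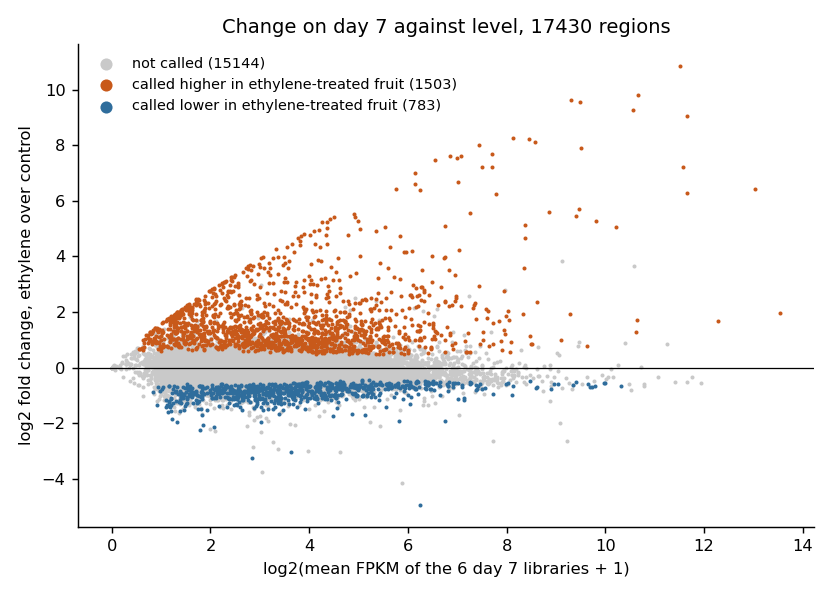
Each point is 1 tested region, with its mean level over the 6 day 7 libraries on the x axis (log2 of FPKM + 1) and the log2 fold change of ethylene-treated over control fruit on the y axis; orange marks the 1503 regions called higher, blue the 783 called lower and grey the rest. The orange points extend past 10 at high levels, whereas the blue points stay mostly above -2.

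The asymmetry grew with the size of the change. At a log2 fold change of at least 1 there were 1045 higher and 212 lower regions, and at 2 or more there were 365 higher and 6 lower. At 3 or more the numbers were 147 higher and 3 lower, and at 5 or more 45 and 0. Among regions with a locus in all 6 day 7 libraries, 334 were higher and 1 was lower by at least 2, and 133 and 0 by at least 3. The counts of lower calls depended more on single libraries than those of higher calls. Without E7 B, 1160 higher and 252 lower regions were called (1412 in all), and without E7 C 1162 higher and 240 lower (1402 in all). The lower calls numbered 388 without K7 A and 508 without K7 B, and 481 and 482 without the ethylene-treated day 1 libraries A and C. In paired-end libraries alone, 1242 higher and 599 lower regions were called.

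**Figure D2:**
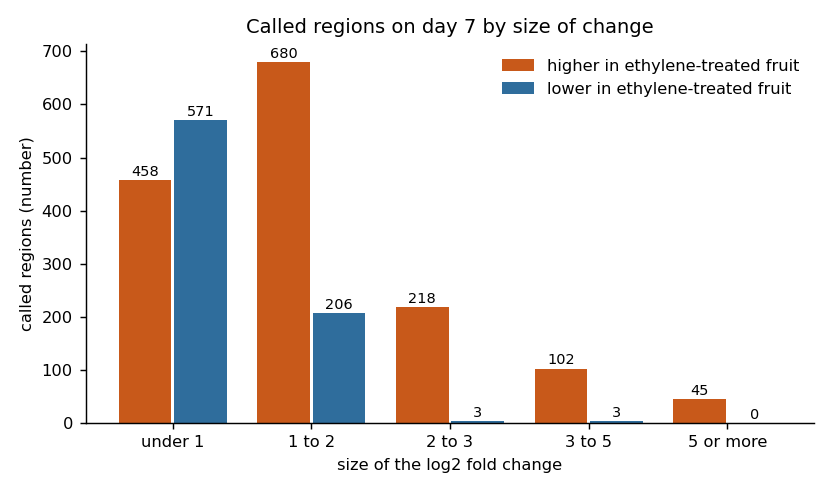
Number of called regions on day 7 (y axis) by the absolute size of the log2 fold change (x axis), higher in ethylene-treated fruit in orange and lower in blue. Below 1 the lower calls are more numerous, 571 against 458, and in every larger class the higher calls are.

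The 8 regions with 1 identifier and the largest rises had 178 FPKM or more in every ethylene-treated library and 7.06 or less in every control library. Mba06_g29120 (chromosome 6, 34725641 to 34728448) had an FPKM of 3403, 3185 and 3153 in E7 A, B and C, against 2.07, 1.89 and 4.26 in K7 A, B and C. The groups were separated by about 3 orders of magnitude, with a log2 fold change of 9.82 (SE 0.39, limma adjusted p = 2.44e-07). Mba04_g17810 (chromosome 4, 21614554 to 21624411) had 3370, 2859 and 2872 in ethylene-treated fruit, against 5.99, 2.51 and 3.86 in control fruit, a log2 fold change of 9.26 (SE 0.25). Mba04_g31600 (chromosome 4, 36778215 to 36779810) had 602, 522 and 553, against 1.22, 0.635 and 0.635, a log2 fold change of 8.27 (SE 0.18). In each of these regions the lowest ethylene-treated library exceeded the highest control library by more than 2 orders of magnitude.

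The region of Mba05_g15610 (chromosome 5, 14714904 to 14719049) summed 2 loci in each library. It had 1467, 1494 and 1407 FPKM in ethylene-treated pulp and was measurable in every control library, at 4.06, 4.66 and 7.06 FPKM. Its log2 fold change was 7.89 (SE 0.22). Of the control sums, the locus listed as Mba05_g15610 held 1.09, 0.673 and 2.16 FPKM. Mba06_g17520 (chromosome 6, 13143451 to 13156448) had 396, 471 and 367 in ethylene-treated fruit, against 2.67, 0.918 and 0.0998 in control fruit, where the replicates were widely spread, a log2 fold change of 7.70 (SE 0.37). The replicates of Mba04_g19130 (chromosome 4, 25046340 to 25050148) were close in ethylene-treated fruit, at 245, 220 and 221, against 0.27, 0.0771 and 0.215 in control fruit, a log2 fold change of 7.60 (SE 0.18). The remaining pair had the smallest standard errors. Mba09_g21670 (chromosome 9, 33303396 to 33305064) had 260, 250 and 247, against 0.4, 0.438 and 0.297, a log2 fold change of 7.52 (SE 0.15). Mba01_g05650 (chromosome 1, 4160265 to 4161632) had 193, 183 and 178, against 0, 0.149 and 0.0321, a log2 fold change of 7.45 (SE 0.16). The limma adjusted p of these 8 regions was at most 8.35e-07, and all 8 were called under all 26 alternatives.

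**Figure D3:**
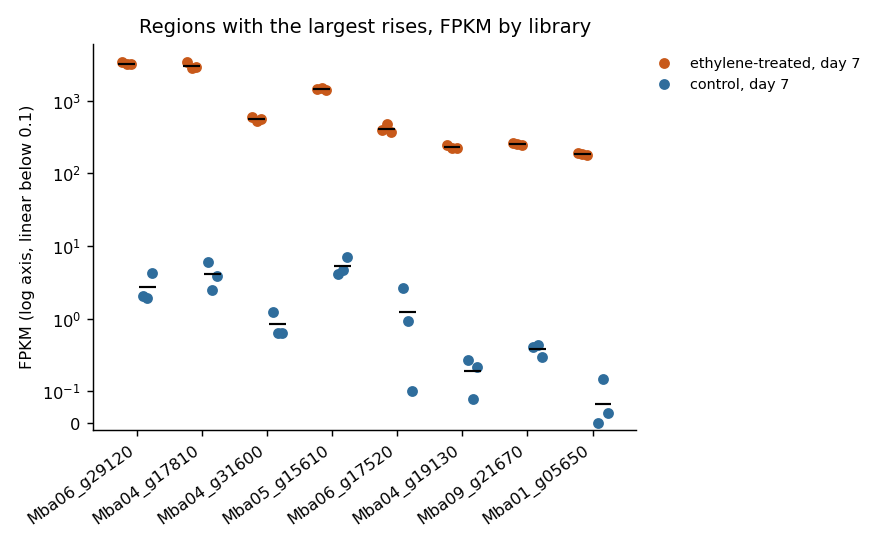
FPKM (y axis, logarithmic above 0.1) of the 8 regions with 1 identifier and the largest rises, with 1 point per library and a bar at the group mean, ethylene-treated libraries in orange at the left and control libraries in blue at the right. The ethylene-treated points lie between 178 and 3403 and the control points between 0 and 7.06.

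Larger changes still were found in regions that joined neighbouring identifiers. The region on chromosome 5 from 25927323 to 25967868, which held Mba05_g17690, Mba05_g17700 and Mba05_g17710, had a summed FPKM of 5495, 6192 and 5824 in ethylene-treated fruit, against 1.17, 5.38 and 1.27 in control fruit (log2 fold change 10.85, SE 0.38). Within it, the locus listed as Mba05_g17700, with the same start and end in all 6 tables, carried 2740, 2194 and 2292 FPKM, against 0.892, 2.3 and 0. The region of Mba02_g14110 and Mba02_g14120 (chromosome 2, 25830786 to 25838877) had 1429, 1237 and 1132, against 0.0928, 0.719 and 1.13 (log2 fold change 9.63, SE 0.23). Which of its neighbouring identifiers a merged region's FPKM belongs to cannot be told from the sum. Regions with 1 identifier can hold several loci as well. That of Mba04_g17810 had 2, 3 and 3 loci in E7 A, B and C, and 5, 3 and 4 in K7 A, B and C.

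Some of the most abundant transcripts of the pulp were among the changed ones. Mba09_g26900 (chromosome 9, 37384449 to 37385409) was the most abundant region with 1 identifier, with 13996, 18483 and 17466 FPKM in ethylene-treated fruit, against 169, 190 and 212 in control fruit. Its mean was 16648 ± 2353 in ethylene-treated fruit and 190 ± 21.1 in control fruit (SD, n = 3 each), a log2 fold change of 6.44 (SE 0.30, limma adjusted p = 7.22e-07). Mba01_g18460 (chromosome 1, 14157157 to 14179783) had 4374, 8561 and 5314, against 37.4, 29.8 and 50.2, a log2 fold change of 7.22 (SE 0.29). A smaller rise from a high level in control pulp was seen for Mba06_g28720 (chromosome 6, 34287428 to 34288601), with 2580, 2449 and 2277, against 801, 602 and 844, a log2 fold change of 1.71 (SE 0.25).

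The highest mean FPKM of all tested regions over the day 7 libraries belonged to a region without an identifier on chromosome 6 (32928189 to 32932292), between Mba06_g27060 and Mba06_g27080. It had 12128, 21861 and 23380 FPKM in ethylene-treated fruit, against 3643, 5262 and 5295 in control fruit (log2 fold change 1.98, SE 0.28, limma adjusted p = 0.00147). The single-end library was the lowest of its group in both treatments. The call was lost without the filter on low FPKM and with quantile normalization, where the log2 fold change was 0.14 and the adjusted p 0.758. The region of Mba01_g05020, Mba01_g05030 and Mba01_g05040 (chromosome 1, 3727394 to 3741717) had 7904, 7539 and 7394, against 2186, 1990 and 3026 (log2 fold change 1.69, SE 0.29), and was not called without the filter. The other region among the 4 most abundant was Bscaffold3 from 2104 to 360293, with Mba00_g00150 as its only identifier. It had 2474, 3104 and 4055 FPKM in ethylene-treated fruit, against 3866, 5117 and 5002 in control fruit, groups that overlapped, and it was not called (log2 fold change -0.56, SE 0.28, limma adjusted p = 0.228).

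The falls were small by comparison, and the largest of them rested on unlisted values. Mba09_g05450 (chromosome 9, 3977161 to 3981759) had the most negative log2 fold change among regions with 1 identifier, at -4.94 (SE 1.37, limma adjusted p = 0.0433). It lies within the unlisted stretch of chromosome 9: E7 A had 69.1 FPKM and E7 B and C had no locus there, against 142, 94.2 and 147 in K7 A, B and C. With the unlisted values as missing, its log2 fold change was -0.85 and it was not called (adjusted p = 0.16). The same stretch held the region from 3864065 to 3871578, with 13 FPKM in E7 A and no locus in E7 B and C, against 18.7, 17.4 and 19.7 in the K7 libraries. The region on chromosome 3 from 534976 to 535637 had no locus in any E7 library, against 3.96, 28.2 and 4.78 FPKM in the K7 libraries, so its fall cannot be told apart from the absence of a locus.

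Of the falls of merged regions with a locus in every day 7 library, the largest was that of a transcript with low FPKM. Mba05_g28480 (chromosome 5, 40498132 to 40501325) had 0.133, 0 and 0.134 FPKM in ethylene-treated fruit, against 8.21, 1.87 and 4.33 in control fruit (log2 fold change -2.26, SE 0.35, limma adjusted p = 0.00256). It was called under all 25 alternatives, with a log2 fold change of -1.62 where only the highest locus was kept. That region held 1 locus in each E7 library, against 4, 2 and 2 loci in K7 A, B and C. The region of Mba08_g17610 and Mba08_g17620 (chromosome 8, 28878410 to 28897204), chosen after its values were seen as the largest such fall outside the regions with 1 identifier, had 2.27, 2.04 and 2.28, against 6.35, 13.9 and 16.2 (log2 fold change -1.95, SE 0.31), and was also called under all 25. The ethylene-treated replicates of this region were within a narrow range, while the control replicates spread more widely. A region without an identifier on chromosome 6 (11306260 to 11317262), chosen in the same way, had 48.1, 13.9 and 14.2, against 82.6, 68.7 and 103 (log2 fold change -1.92, SE 0.53), with the single-end E7 A nearest to the control libraries, and was not called in paired-end libraries alone or when any day 7 library other than E7 A was left out. Mba09_g05450 and the chromosome 9 region without an identifier lost their calls when any library but E7 A was left out, and the chromosome 3 region when any E7 library was.

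The other 6 of the 8 largest falls with 1 identifier were of transcripts that averaged at most 18.5 FPKM in control pulp. Mba04_g24960 (chromosome 4, 31438748 to 31445484) had 1.56, 0 and 0.422 FPKM in ethylene-treated fruit, against 5.93, 5.45 and 1.88 in control fruit. It was not called on its highest locus (log2 fold change -1.11) or in paired-end libraries alone. Mba01_g11600 (chromosome 1, 8753011 to 8763930) had 1.21, 0.87 and 0.771, against 3.92, 4.06 and 6.18, a log2 fold change of -1.54 (limma adjusted p = 0.00318). Where only the highest locus of each region was kept, its log2 fold change was -0.39 and it was not called: the region held 1 locus in each E7 library, against 3, 5 and 6 loci in the K7 libraries. Mba02_g12070 (chromosome 2, 24346349 to 24347204) was listed at 0 in all 3 ethylene-treated libraries, against 0.509, 3.3 and 3.37 in control fruit. In K7 A its level was thus closer to the ethylene-treated libraries than to the other control libraries.

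Mba05_g15070 (chromosome 5, 12432581 to 12461320) had 4.8, 3.57 and 2.88 FPKM in ethylene-treated fruit, against 11.2, 22 and 7.06 in control fruit, and on its highest locus alone it fell by 0.73. Mba08_g15590 (chromosome 8, 15950134 to 15975977) had 3.95, 4.73 and 11, against 14.5, 26.8 and 14, and was not called on its highest locus (-0.58). Mba02_g15420 (chromosome 2, 26714038 to 26719403) had 0, 0.595 and 0, against 3.61, 2.31 and 0.846. The K7 C value of this region, 0.846, was near to the E7 B value, 0.595. Most of these calls rested on single day 7 libraries. Those of Mba04_g24960 and Mba05_g15070 were lost without E7 B or E7 C, and that of Mba04_g24960 also without K7 A or K7 B. Mba02_g12070 was not called without any single day 7 library other than K7 A, Mba08_g15590 without any other than E7 C, and Mba02_g15420 without any other than E7 B or K7 C. Leaving out an ethylene-treated library of day 1 also ended the calls of Mba02_g12070, Mba08_g15590 and Mba02_g15420, and leaving out control day 1 B that of Mba08_g15590.

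**Figure D4:**
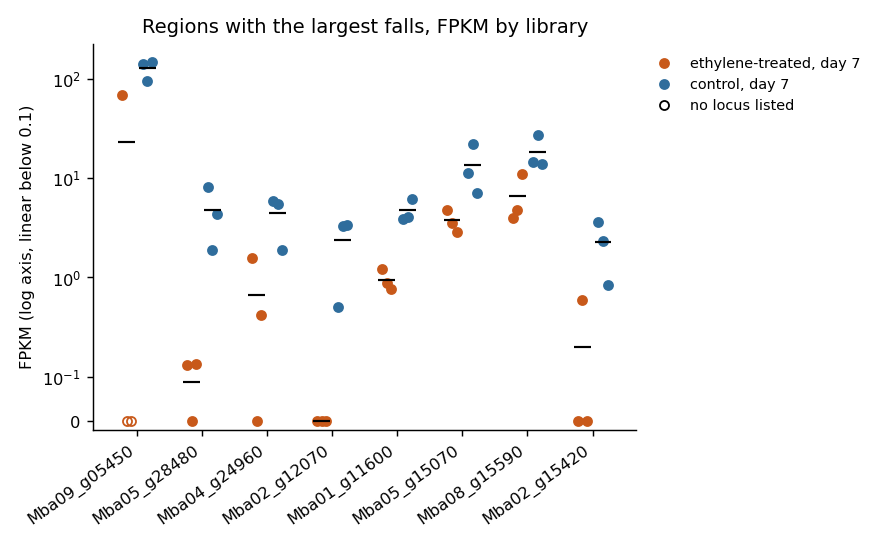
FPKM (y axis, logarithmic above 0.1) of the 8 regions with 1 identifier and the largest falls, with 1 point per library and a bar at the group mean, ethylene-treated libraries in orange at the left and control libraries in blue at the right; open points mark libraries without a locus. The open points of Mba09_g05450 stand at 0 below its E7 A value of 69.1, and the other control points lie between 0.509 and 26.8.

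The 4 most abundant regions called lower, among those with 1 identifier whose groups did not overlap, changed by less than 1 on the log2 scale. Mba06_g28490 (chromosome 6, 34100393 to 34105807) had 872, 762 and 791 FPKM in ethylene-treated fruit, against 1373, 1066 and 1154 in control fruit (log2 fold change -0.56, SE 0.15). Mba08_g07930 (chromosome 8, 6148697 to 6152364) had 659, 669 and 632, against 1096, 909 and 1158 (-0.68, SE 0.14). The ethylene-treated replicates of Mba08_g07930 differed by less than the control replicates did, with means of 654 ± 19.4 in ethylene-treated fruit and 1054 ± 130 in control fruit (SD, n = 3 each). Mba06_g26770 (chromosome 6, 32624409 to 32625612) had 544, 658 and 670, against 958, 866 and 1273 (-0.71, SE 0.19). Mba01_g06990 (chromosome 1, 5157895 to 5164163) had 468, 533 and 521, against 828, 670 and 871 (-0.63, SE 0.14). Of these 4, Mba06_g28490, Mba06_g26770 and Mba01_g06990 were not called after median-of-ratios scaling or without E7 A, B or C, K7 A or K7 C, the calls of Mba06_g28490 and Mba06_g26770 were also lost without either ethylene-treated library of day 1, and Mba08_g07930 was not called without E7 C.

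The comparison was repeated on loci whose start and end were identical in all 6 day 7 tables, which avoids merging. Of 14273 such loci, 2750 passed the filter and limma called 653 (23.7%), 418 higher (15.2%) and 235 lower (8.55%). Among the 1660 with an identifier, 441 were called (26.6%), 310 higher and 131 lower. The median log2 fold change was 1.11 for the called higher loci and -0.61 for the called lower ones, and 235 higher and 10 lower loci changed by at least 1. The excess of higher loci depended on the scaling: with quantile normalization, 388 higher and 535 lower loci were called. It was kept by median-of-ratios scaling, with 477 higher and 256 lower. Leaving out E7 B gave 351 calls, 60 of them lower, and leaving out E7 C gave 346, 53 of them lower. The lower calls numbered 144 without E7 A, 114 without K7 A and 124 without K7 C, and in paired-end libraries alone there were 284 higher and 99 lower loci.

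Large rises were also seen at single loci, named here after their values were seen. The FPKM of these loci is part of the region sums in the same libraries, so they are no second observation. The locus of Mba05_g15610 (chromosome 5, 14714979 to 14716344) had 1128, 1098 and 1048 FPKM in ethylene-treated fruit, against 1.09, 0.673 and 2.16 in control fruit. The upper bounds of the control values were 1.47, 1.01 and 2.72. Mba05_g10270 (chromosome 5, 7938672 to 7942841) had 262, 178 and 121, against 0, 0.268 and 0.183, with a log2 fold change of 7.29 (SE 0.27). The bounds cover the uncertainty within a library only, and here they left the groups far apart.

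In the other direction, Mba10_g24700 (chromosome 10, 39485712 to 39486017) was listed at 0 in all 3 ethylene-treated libraries, against 4, 7.2 and 7.77 FPKM in control fruit, and was called under all 16 alternatives (limma adjusted p = 0.000275 over the 2750 loci). Mba11_g21850 (chromosome 11, 27585278 to 27586270) had 244, 158 and 136, against 419, 360 and 296 (log2 fold change -1.03, SE 0.24). Mba10_g12980 (chromosome 10, 30987251 to 30993160) had 29.7, 19.5 and 20, against 53.6, 48.5 and 39.3 (-1.02, SE 0.20). In both of these the single-end E7 A was the ethylene-treated library nearest to the control libraries. Both lost their call without E7 B or E7 C, and Mba11_g21850 also without K7 A or K7 B. Mba04_g11670 (chromosome 4, 9132187 to 9135318) had 8.26, 10.8 and 8.73, against 21.5, 17.3 and 17.5 (-0.95, SE 0.14), and was called under all 17 alternatives.

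Within the regions, which leave out loci under 300 bp, the FPKM of ethylene-treated pulp was concentrated in fewer of them. The 10 regions with the highest FPKM in each library held 14.7%, 19.3% and 19.1% of the summed FPKM in E7 A, B and C, against 7.68%, 9.93% and 9.3% in K7 A, B and C. The means were 17.7% ± 2.57 in ethylene-treated fruit and 8.97% ± 1.16 in control fruit (SD, n = 3 each), and the groups did not overlap. A two-sided exact permutation test gave p = 0.1, the lowest value possible with 3 libraries in each group, and its Benjamini-Hochberg adjusted value over 7 library measures was 0.233. The 100 highest regions held 31.4%, 38.7% and 37.5% of the FPKM in ethylene-treated fruit, against 22.6%, 25.8% and 25.8% in control fruit. By contrast, the number of regions with an FPKM of at least 1 was 17003 ± 321 in ethylene-treated fruit and 16947 ± 112 in control fruit (SD, n = 3 each, exact permutation test, p = 0.9). Of the 10 regions with the highest group mean, ethylene-treated and control fruit shared 3. In the ethylene-treated list, 8 of the 10 were called higher, and in the control list 2 were called higher and 0 lower. Both lists were ranked on the same values that made the calls, so these counts carry no test. Of all tested regions, 8.62% were called higher and 4.49% lower, and of those with 100 FPKM or more on day 7, 21.7% and 10.3%.

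**Figure D5:**
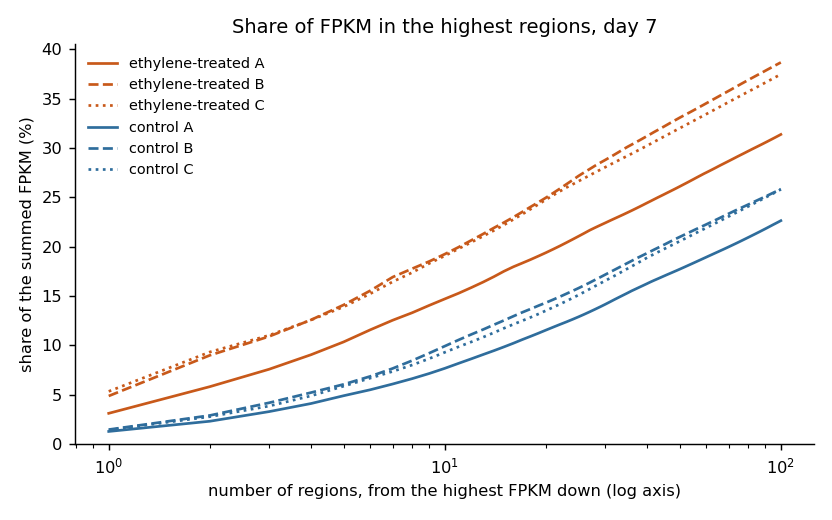
Cumulative share of the summed FPKM (y axis, in %) held by the highest regions of each library, counted from the highest down (x axis, logarithmic), for E7 A, B and C in orange and K7 A, B and C in blue. At 10 regions the ethylene-treated libraries stand at 14.7% to 19.3% and the control libraries at 7.68% to 9.93%, and the single-end A library is the lowest of its group in both treatments.

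FPKM is relative to the whole library, and the total over regions was not fixed. The summed FPKM of the regions was 444717 ± 6319 in ethylene-treated fruit and 366944 ± 8669 in control fruit (SD, n = 3 each, exact permutation test, p = 0.1). Loci under 300 bp, which were left out, held 10.6%, 29.0% and 42.8% of all FPKM in E7 A, B and C, against 16%, 98.0% and 96.9% in K7 A, B and C. The mean share was 27.5% ± 16.2 in ethylene-treated fruit and 70.3% ± 47.0 in control fruit (SD, n = 3 each). The exact permutation test gave p = 0.3, with an adjusted value of 0.35 over the 7 library measures. How these loci bear on the comparison of regions was not tested.

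The regions called higher held 31.6%, 35.5% and 34.9% of the FPKM of all tested regions in E7 A, B and C, against 7.21%, 7.49% and 8.09% in K7 A, B and C. The 45 regions that rose by at least 5 on the log2 scale alone held 13.8%, 16.2% and 15.2%, against 0.13%, 0.162% and 0.185%. The regions called lower held 4.99%, 4.72% and 4.87%, against 10.1%, 9.75% and 9.78%. These shares describe regions selected by the same comparison and carry no test. A smaller number of copies per cell and a smaller number of cells expressing a transcript cannot be told apart in pulp RNA.

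The share of calls varied with the level. Of the 447 tested regions with a mean FPKM of 100 or more over the day 7 libraries, 97 (21.7%) were called higher and 46 (10.3%) lower, against 267 (7.00%) and 165 (4.32%) of the 3816 regions between 5 and 10. Among the levels of 1 FPKM or more, the share of higher calls was lowest between 5 and 10. Of the 354 regions under 1 FPKM, 48 (13.6%) were called higher and 4 (1.13%) lower. These regions passed the filter over the 10 libraries only through their day 1 levels, so their shares cannot be compared with those of the other levels. The higher regions at 100 or more had a median log2 fold change of 2.24, and the lower ones of -0.65. Regions with a listed identifier were called higher more often than the rest, with 640 of 5155 (12.4%) for 1 identifier, 102 of 660 (15.5%) for several and 761 of 11615 (6.55%) for none. For the lower calls the same shares were 4.35%, 4.09% and 4.58%. Whether regions with none lie outside annotated genes was not tested, and the classes were not compared at equal FPKM.

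Across the 11 chromosomes the share of regions called higher ranged from 8.03% on chromosome 10 to 10.8% on chromosome 5, and the share called lower from 3.59% on chromosome 11 to 5.15% on chromosome 7. The 672 tested regions on unplaced scaffolds gave 12 higher calls (1.79%) and 36 lower calls (5.36%).

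Some called regions lay next to each other in the order of tested regions, where regions that did not pass the filter are skipped. Of the 1503 higher regions, 205 (13.6%) were followed on the chromosome by another higher region, beside the 8.62% of all tested regions that were called higher. Of the 774 lower regions with a tested region after them, 39 (5.04%) were followed by a lower one, beside 4.49% of all. Runs of at least 3 called regions in the same direction, consecutive among the tested regions, numbered 29 for higher and 2 for lower regions. Untested regions can lie between the members of a run. Whether neighbouring regions belong to the same transcript was not tested.

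The run with the widest range of changes among those of 4 regions lay on chromosome 7 between 12374240 and 12440175, and its regions were named after their values were seen. A region without an identifier (12374240 to 12377092) had 24.9, 28.6 and 20.7 FPKM in ethylene-treated fruit, against 2.63, 2.35 and 3.87 in control fruit. Mba07_g14160 (12382296 to 12389920) had 59.1, 89.5 and 89.7, against 5.87, 4.91 and 3.96. Mba07_g14170 (12423374 to 12424203) changed most, with 149, 151 and 120, against 0.122, 0.157 and 0. The last region, without an identifier (12435970 to 12440175), had 10.7, 14.7 and 22.9, against 3.99, 3.36 and 2.33. The log2 fold changes of the 4 regions were 2.71, 3.75, 7.00 and 1.97 in this order. In all 4 every ethylene-treated library lay above every control library, which held for all 1503 regions called higher. Over all tested regions the share was 15.5%.

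Some regions entered the test at 0 in control pulp, most of them for want of a locus in at least 1 control library. All 3 control libraries stood at 0, or had no locus, and all 3 ethylene-treated libraries at 1 FPKM or more in 58 of the 17430 tested regions. Of these 58, 20 had a locus in all 6 libraries. The reverse pattern occurred in 4 regions, of which 0 had a locus in all 6. The 3 highest of the 20 among regions with 1 identifier were Mba10_g14400 (chromosome 10, 32024084 to 32025628), with 17, 13.6 and 13.4 FPKM in E7 A, B and C, Mba02_g16780 (chromosome 2, 27623311 to 27624156), with 5.27, 10.7 and 8.02, and Mba04_g25440 (chromosome 4, 31807943 to 31811626), with 10.6, 6.08 and 5.38. No day 7 fold change is given for these regions, since the control libraries are listed at 0.

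Set beside day 1, most of the called regions had been called in the same direction then. Of the 1503 regions higher on day 7, 1212 (80.6%) were also called higher on day 1, which were 41.5% of the 2921 regions called higher on day 1, and 36 were called lower on day 1. Of the 783 lower regions, 588 (75.1%) were also called lower on day 1, 13.8% of the 4264 called lower on day 1, and 19 were called higher. These day 1 lists covered 16.8% and 24.5% of all tested regions, and the 2 days share no library but share the estimate of the spread. On day 1 the layout was not balanced: both ethylene-treated libraries were paired-end, and of the control libraries A was single-end and B paired-end. Of the 8 largest rises with 1 identifier, 7 were also called higher on day 1, with log2 fold changes of 3.59 to 10.29. Mba01_g05650 was not (-0.06, limma adjusted p = 0.823), with 0.0426 and 0 FPKM in the ethylene-treated and 0 and 0.136 in the control libraries of day 1.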

How the data were processed

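Total RNA from banana pulp was sequenced on an Illumina instrument. The authors trimmed the reads with Trimmomatic (0.38.0), mapped them with Tophat2 to DH PKW v1.1 and deposited FPKM values per locus from Cufflinks, 1 table per library. Settings for strand, multi-mapping and assembly were not given in the sources used here. Bounds gave whole numbers of fragments (within 0.01) for only 60.2% to 63.9% of day 7 rows of at most 20 fragments, so no count test was run.

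Starts were written 1-based. Loci of at least 300 bp were merged, FPKM summed and log2(FPKM + 1) fitted with limma 3.58.1 (R 4.3.3) as a means model of 4 groups with a variance trend. The loci of identical position were fitted on the 6 day 7 libraries alone. The p-values were two-sided and adjusted by Benjamini-Hochberg over all features of a fit. Library measures were compared in scipy 1.17.1. The fit was tested on simulated data.

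Regions, lists and tests were chosen with earlier results of these data known. The named regions were those with 1 identifier, called and not overlapping between groups: the 8 largest changes and the 4 most abundant in each direction, the 4 most abundant regions of all, and the 2 largest changes each way among the other called regions. Planned protein motif and promoter motif counts were not run, because no such sequences were used here.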

Additional observations from a re-analysis of the deposited data

Results flagged for a closer look

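The interaction term in limma is given as the day 7 log2 fold change minus that of day 1. The 39 regions named here were chosen by their day 7 values, which also enter this term. A count among them thus does not describe regions in general, and the share over all tested regions was not counted. At an adjusted p of at most 0.05 over all regions, 14 of the 39 had a different ethylene effect on the 2 days. Their change was larger on day 7 for Mba01_g05650 (interaction 7.51, adjusted p = 1.94e-06), Mba04_g17810 (5.40), the region of Mba05_g17690, Mba05_g17700 and Mba05_g17710 (5.04), Mba06_g17520 (4.11), Mba02_g16780 (2.35), Mba01_g18460 (2.22), Mba04_g25440 (2.2), Mba09_g21670 (1.40) and the region of Mba02_g14110 and Mba02_g14120 (1.27, adjusted p = 0.0494). In Mba02_g16780 and Mba04_g25440 all control libraries of day 7 were listed at 0, so that the size of this difference depends on the pseudocount. The pseudocount also bears on other regions with low control values, such as Mba01_g05650 and Mba09_g21670, where every control library was under 1 FPKM. In the region of Mba02_g14110 and Mba02_g14120, the control libraries had 0.0928, 0.719 and 1.13 FPKM on day 7 and 1.87 and 2.47 on day 1. Its ethylene-treated libraries had 1429, 1237 and 1132 on day 7 and 1055 and 1024 on day 1.

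The rise was smaller on day 7 for Mba09_g26900 (interaction -2.06) and for the region on chromosome 7 from 12435970 to 12440175 (-2.25). For the abundant lower regions Mba06_g26770 (1.90), Mba08_g07930 (1.16) and Mba01_g06990 (1.1), the positive interaction means a smaller fall on day 7: their day 1 log2 fold changes were -2.61, -1.85 and -1.73. In Mba06_g26770 the FPKM was 207 and 151 in the ethylene-treated and 1155 and 1016 in the control libraries of day 1. The layout was balanced on day 7 but not on day 1, where control A was the only single-end library, and its part in these differences was not tested.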

How the results depend on the processing

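The number of called regions stayed within 1.5 times of 2286 in the other settings except with regions of 1 identifier alone (1060 of 5155 tested, 734 higher and 326 lower) and in leave-one-out fits, which gave 1402 to 2414 calls, 1160 to 1565 of them higher and 240 to 849 lower. The lower calls also moved with layout as a term (1429), with the day 7 libraries alone (472) and with regions merged over the day 7 tables (490). Over loci of identical position, the calls moved without a filter (429, 80 of them lower) and in paired-end libraries alone (383, 99 lower), and the lower calls with quantile normalization (535) and layout as a term (392). Leave-one-out fits gave 346 to 559 locus calls, 53 to 220 of them lower. Among loci with an identifier, 264 were called without a filter, 261 in paired-end libraries and 248 to 381 in leave-one-out fits. The cause of these moves was not tested beyond the smaller number of features or libraries in the settings named so. The difference in the share held by the 10 highest regions, 8.72 percentage points, ranged from 7.93 to 10.2 when a library was left out.

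With the replicate block, 2199 regions were called, 1449 higher and 750 lower, and 729 loci. Deviations from the group means correlated at 0.333 for the A pair, 0.0729 for the B pair and 0.0745 for the C pair, so the letters were not taken as pairing the libraries. E7 A correlated best with K7 A, E7 B with K7 C (0.173) and E7 C with K7 B (0.119).

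Of 992 refits of the 39 regions, 864 kept their direction and their side of the threshold, 126 kept the direction and lost the call, 2 gained a call and 0 changed direction. Settings that altered only the filter, the layout term, the replicate block, the spread or the day 1 libraries could not move the log2 fold change. The direction was fixed in those refits. Most of the 39 regions were also chosen because they were called, so the tally does not measure stability. The limits are a depth not read from the tables, 3 libraries per group, values of 0 that stand for loci not listed, and region sums over loci whose number differs between libraries.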
